A study of Mus musculus with 8 samples.

Results

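The interferon response genes described here are 37 mouse genes listed by name as genes that cells induce in response to interferons. The list itself uses no measured value, but it was drawn up with earlier results of these data known. A row with the same symbol was found for 35 of the 37 among the 32285 genes of the deposited matrices. The other two, Mx1 and Mx2, had no row under those symbols and were not analysed here. The 35 genes fell into 4 signalling and transcription genes (Irf1, Irf7, Irf9, Stat2), 5 genes of the IFIT family, 5 of the OAS family, 3 of the ISG15 system (Isg15, Usp18, Trim25), 2 sensors (Ifih1, Zbp1), 8 other effectors, 4 membrane proteins (Bst2, Ifitm1, Ifitm2, Ifitm3) and 4 guanylate-binding or immunity-related GTPases (Gbp2, Gbp7, Igtp, Irgm1).

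Interferons are cytokines made on detection of viruses and other microbes. Type I and type III interferons act through receptors that lead to a transcription factor complex that holds STAT2 and IRF9, and type II interferon (interferon-gamma, from T and NK cells) acts through a receptor of its own. In the gut epithelium type III interferon is known as the main antiviral signal, and many of these genes also have a level that is set without infection, such as the IFITM proteins of stem cells. IFIT proteins bind foreign RNA, OAS enzymes sense double-stranded RNA, ISG15 is a ubiquitin-like tag, and the GTPases attack vacuoles that hold pathogens.

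The series held 8 libraries from the intestine of mice of the C57BL/6 strain, of which 4 were single-cell RNA libraries and 4 were Visium libraries, in which each spot of a slide captures the RNA of the small tissue region above it. The organoid libraries were small intestinal organoids at passage 1, grown alone (control, 1 library) or in coculture (1 library), with a partner that the labels do not name. Per the labels, each culture library pooled 16 wells, of which 100000 sorted epithelial cells were used. The tissue libraries, 1 from the small and 1 from the large intestine, held 50000 sorted live cells together with sorted LGR5+ stem cells and sorted CD31+ PDPN+ LYVE1+ lymphatic endothelial cells, and both C57BL/6 and Lgr5-eGFP-ires-CreERT2 mice were used for them. Visium was done on 10 µm cryosections, with 2 sections from each tissue, which the labels call technical duplicates. The titles of these section libraries begin with WT. The age, sex and number of the animals were not given in the sources used here. With 1 library per culture or tissue, and with technical duplicates for the spots, no test between groups is possible. Every interval below therefore covers counting error only, and every difference is one between libraries.

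Deposited depth was 24356162 to 142499881 unique molecular identifiers (UMIs, counted RNA molecules) per library. Levels are given in CPM, the UMIs of a gene per 1000000 UMIs of all genes in the group. The 35 genes together made up 705.8 CPM of the control organoids, 631.7 of the cocultured organoids, 857.0 of the small and 1994 of the large intestinal cells. In the sections they made up 1634 and 1907 CPM of the small intestine and 1963 and 2020 CPM of the large intestine. After filters on genes and mitochondrial UMIs, 538, 1028, 2695 and 5882 cells and 2094 and 2571 spots of the small and 2094 and 2179 of the large intestine were kept, and the tissue libraries shared 25 cell barcodes. All 35 genes had a UMI in each of the 8 libraries. Members of the IFIT, IFITM, OAS and GTPase families have near-identical copies, so the split of reads within a family is uncertain.

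The stretches before the start sites of 6 members are shown because these genes carry the patterns below: Ifit1, Isg15 and Rsad2 were higher at the villus tip, Ifit1bl1 was higher at the colon surface, Ifitm2 was lower at both, and Gbp2 had the largest ratio of lymphatic to epithelial cells in the small intestine. Each is the 250 bases before the RefSeq start in build GRCm38.p6, 5′ to 3′ on the strand of the gene. Capitals mark 2 copies of GAAA with any 2 bases between them, or 2 copies of TTTC so spaced, which is the same motif on the other strand. This is the core of the interferon-stimulated response element, which interferon-activated transcription factors bind.
Ifit1, chr19:34640639-34640888, plus strand: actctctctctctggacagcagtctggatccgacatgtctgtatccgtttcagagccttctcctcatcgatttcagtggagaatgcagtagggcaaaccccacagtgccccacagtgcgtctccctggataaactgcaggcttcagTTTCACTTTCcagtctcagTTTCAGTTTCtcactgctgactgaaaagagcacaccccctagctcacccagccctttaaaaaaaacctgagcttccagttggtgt
Isg15, chr4:156200819-156201068, minus strand: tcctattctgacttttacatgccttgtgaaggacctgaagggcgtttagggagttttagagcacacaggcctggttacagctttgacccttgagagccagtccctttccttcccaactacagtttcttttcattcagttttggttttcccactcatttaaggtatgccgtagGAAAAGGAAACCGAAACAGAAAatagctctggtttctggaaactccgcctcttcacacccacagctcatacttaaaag
Rsad2, chr12:26456453-26456702, minus strand: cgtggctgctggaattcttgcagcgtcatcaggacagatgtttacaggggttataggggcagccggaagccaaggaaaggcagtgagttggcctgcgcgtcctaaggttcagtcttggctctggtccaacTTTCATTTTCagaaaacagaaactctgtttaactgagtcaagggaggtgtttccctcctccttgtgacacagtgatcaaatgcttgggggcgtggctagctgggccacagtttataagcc
Ifit1bl1, chr19:34601969-34602218, minus strand: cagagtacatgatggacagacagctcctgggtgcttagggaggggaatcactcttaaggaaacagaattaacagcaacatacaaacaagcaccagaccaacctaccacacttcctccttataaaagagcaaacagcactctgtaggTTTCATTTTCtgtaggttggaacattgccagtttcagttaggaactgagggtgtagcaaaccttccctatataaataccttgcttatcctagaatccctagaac
Ifitm2, chr7:140955962-140956211, minus strand: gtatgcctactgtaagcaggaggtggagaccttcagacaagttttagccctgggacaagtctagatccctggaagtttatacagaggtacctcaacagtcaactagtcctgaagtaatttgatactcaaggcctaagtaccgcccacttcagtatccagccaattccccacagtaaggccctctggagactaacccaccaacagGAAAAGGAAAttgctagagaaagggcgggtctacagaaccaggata
Gbp2, chr3:142620413-142620662, plus strand: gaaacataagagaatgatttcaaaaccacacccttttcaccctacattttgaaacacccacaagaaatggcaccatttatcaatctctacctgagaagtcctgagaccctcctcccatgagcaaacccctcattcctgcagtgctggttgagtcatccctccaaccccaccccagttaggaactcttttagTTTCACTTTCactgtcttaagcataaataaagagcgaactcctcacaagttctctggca

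The motif was found 104 and 85 bases before the start of Ifit1, as 3 overlapping matches from 78 to 66 bases before that of Isg15, and 120, 104, 46 and 59 bases before those of Rsad2, Ifit1bl1, Ifitm2 and Gbp2. RefSeq windows of 250 bases before to 50 after the start were found for 29 of the 37 listed genes. Of these, 17 held this motif on either strand. By windows, since some genes have several, it lay in 18 of 33 windows of the members (54.5%) and in 3.44% of 32851 mouse windows of the same length. The members without this match were Cmpk2, Ifi35, Ifi44, Ifit2, Ifitm1, Irf1, Irf7, Irf9, Oasl1, Oasl2, Trim25 and Xaf1. Genes that were higher and genes that were lower at the tip both held the motif, as Ifit1 and Ifitm2 show. The 5 Ifit starts lie within 90.2 kb of chromosome 19 and the 3 Ifitm starts within 54.8 kb of chromosome 7.

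At the villus tip, the last stop of enterocytes before they are shed, most interferon response genes were higher than elsewhere in the small intestine, and the IFITM genes were lower. Tip spots were the top 10% of spots by their share of UMIs from 7 tip genes (Ada, Nt5e, Slc28a2, Slc28a2b, Klf4, Creb3l3 and Pkib, none of them a member). A member was counted where it was at least 1.5-fold higher, or lower, in tip spots than in all other spots in both sections. By this rule 24 of 35 members were higher and 3 lower, against 7.44% higher and 43.1% lower of the 13101 genes compared. The median log2 ratio of the members was 1.22, and that of all genes -0.62.

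All 5 IFIT genes were higher at the tip. Ifit1 stood at 156 CPM in tip spots against 33.4 in the others in section 1, and at 208 against 42.2 in section 2 (log2 ratios 2.22, interval 2.05 to 2.39, and 2.30, 2.17 to 2.44). Ifit1bl1, a close relative of Ifit1, stood at 146 against 57.6 and 179 against 60.0 CPM. In every IFIT gene the tip level of either section lay above the level of the other spots in both. Ifit2 and Ifit3b were scarce, at no more than 11.98 and 8.82 CPM at the tip.

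Rsad2, which encodes viperin, an enzyme that makes a chain-terminating nucleotide, had the largest ratios of all members, with 67.2 against 10.3 CPM in section 1 and 75.2 against 10.9 in section 2 (log2 2.71 and 2.79). Cmpk2, its neighbour on the chromosome and a nucleotide kinase, was at 54.6 against 23.9 and 70.8 against 27.02 CPM. Isg15 was at 77.9 against 18.3 and 114 against 24.2 CPM, and Usp18, which removes ISG15 from proteins and restrains the type I receptor, at 37.3 against 15.5 and 55.0 against 16.2. These genes were thus higher at the tip in either section, by more than the sections differed from each other. Trim25, a ubiquitin ligase that works with the RNA sensor RIG-I, was the most abundant of the ISG15 group, at 256 against 116 and 372 against 152 CPM.

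The OAS family was higher at the tip in 5 of 5 genes, led by Oasl1, an OAS-like protein without enzyme activity, at 236 against 51.8 and 343 against 72.4 CPM (log2 2.19 and 2.24). Oasl2 followed at 123 against 51.9 and 192 against 77.3 CPM. Both sensors were higher, with Zbp1, which recognises Z-form nucleic acids, at 122 against 47.5 and 134 against 51.5 CPM. Among the transcription factors, Irf7, the amplifier of type I interferon production, had the largest ratios, with 205 against 70.3 and 273 against 88.8 CPM. Irf1, Stat2 and Irf7 were counted as higher, while Irf9 was at 46.6 against 42.9 and 73.2 against 53.3 CPM and was not.

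Of the 4 membrane proteins 3 were lower at the tip, where 43.1% of all genes were lower too. Ifitm2 and Ifitm3 block the fusion of viruses in endosomes, and Ifitm2 was at 43.6 CPM in tip spots against 127 in the others in section 1 and at 37.6 against 122 in section 2 (log2 -1.54 and -1.70). Ifitm3 was at 31.3 against 84.8 and 30.3 against 91.7 CPM, and Ifitm1 at 11.0 against 19.0 and 9.11 against 18.2. The ratios of Ifitm1 (-0.79 and -0.999) lay near the median of all genes (-0.62). The fourth, Bst2 (tetherin, which holds virus particles at the cell surface), was at 18.3 against 28.3 and 27.04 against 29.0 CPM and counted in neither direction. The 4 GTPases stood between these extremes: Igtp was higher in both sections, and Gbp2 was at 52.6 against 35.3 CPM in section 1 and 32.6 against 39.6 in section 2, so its sign differed between sections.

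**Figure D1:**
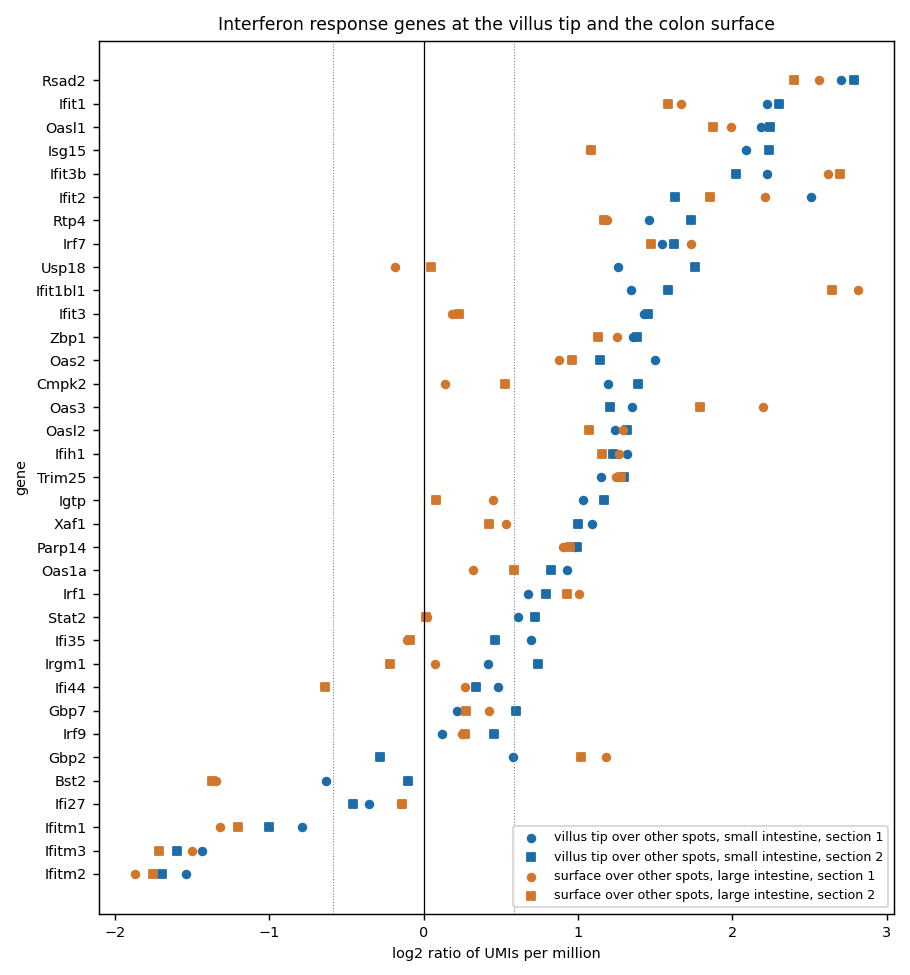
Log2 ratios of CPM for the 35 genes in villus tip spots over the other spots of the small intestine (blue) and in surface spots over the other spots of the large intestine (orange), with circles for section 1 and squares for section 2. Dotted lines mark 1.5-fold, and genes are ordered by the small intestinal ratio, from Rsad2 to Ifitm2, with Ifitm1, Ifitm2 and Ifitm3 below the lower line in both tissues.

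At the colon surface Ifit1bl1 was the most abundant of the members that were higher, and the membrane proteins were lower. Surface spots were the top 10% by the share of Aqp8, Car4, Slc26a3 and Ceacam20. There 18 of 35 members were higher and 4 lower in both sections, against 8.58% and 43.6% of 13805 genes, with a median log2 ratio of 0.92 for the members and -0.61 for all genes. All 4 membrane proteins were lower, with Ifitm2 at 44.7 against 163 CPM in section 1 and 51.3 against 173 in section 2, and Bst2 at 22.1 against 56.2 and 25.0 against 64.7.

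Ifit1bl1 was by far the most abundant member at the surface. It was at 1831 CPM in surface spots against 260 in the others in section 1 and 1700 against 272 in section 2. Its log2 ratios were 2.82 (interval 2.77 to 2.86) and 2.65 (2.60 to 2.69), the largest of all members in section 1. In section 2 the ratio of Ifit3b was larger, at 2.69. Ifit3b was at 38.2 against 6.22 and 38.8 against 6.00 CPM, Rsad2 at 35.6 against 6.04 and 37.03 against 7.01, and Oas3, a sensor of long double-stranded RNA, at 45.2 against 9.85 and 39.7 against 11.5. Gbp2, which did not keep its sign at the villus tip, was at 197 against 86.7 and 162 against 80.2 CPM. Some genes that were higher at the tip were level here: Usp18 was at 4.02 against 4.56 and 4.68 against 4.52 CPM, and Stat2 at 28.1 against 27.7 and 30.3 against 30.1. Whether tip and surface differ for a given gene was not tested.

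Zones of the sections were set by marker genes for crypts, muscle and lymphoid tissue in the same way, and spots in none of these and not at the top were taken as the rest. From crypt through the rest to the top zone, 27 of 35 members were higher at each step in both sections of the small intestine and 25 of 35 in both of the large, against 15.2% of all genes compared in either tissue. Ifitm1, Ifitm2 and Ifitm3 were lower at each step in the small intestine, and Ifitm2 and Ifitm3 in the large, against 41% and 45.9% of all genes. Ifit1 went from 3.74 CPM in crypts through 38.6 to 157 at the tip in section 1 and from 8.65 through 50.8 to 209 in section 2. Ifitm3 went from 134 through 58.0 to 28.5 and from 90.5 through 61.0 to 30.1 CPM, and its muscle zones were higher still, at 233 and 268 CPM. The top zone was the highest of the 5 for 26 members in the small and 19 in the large intestine, against 13.1% and 13.2% of all genes. The muscle zone was the highest for 4 (Ifitm2, Ifitm3, Ifi27 and Gbp2) and 6 (Ifit3, Stat2, Ifitm2, Ifitm3, Ifi27 and Xaf1), against 26.2% of all genes in either tissue.

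**Figure D2:**
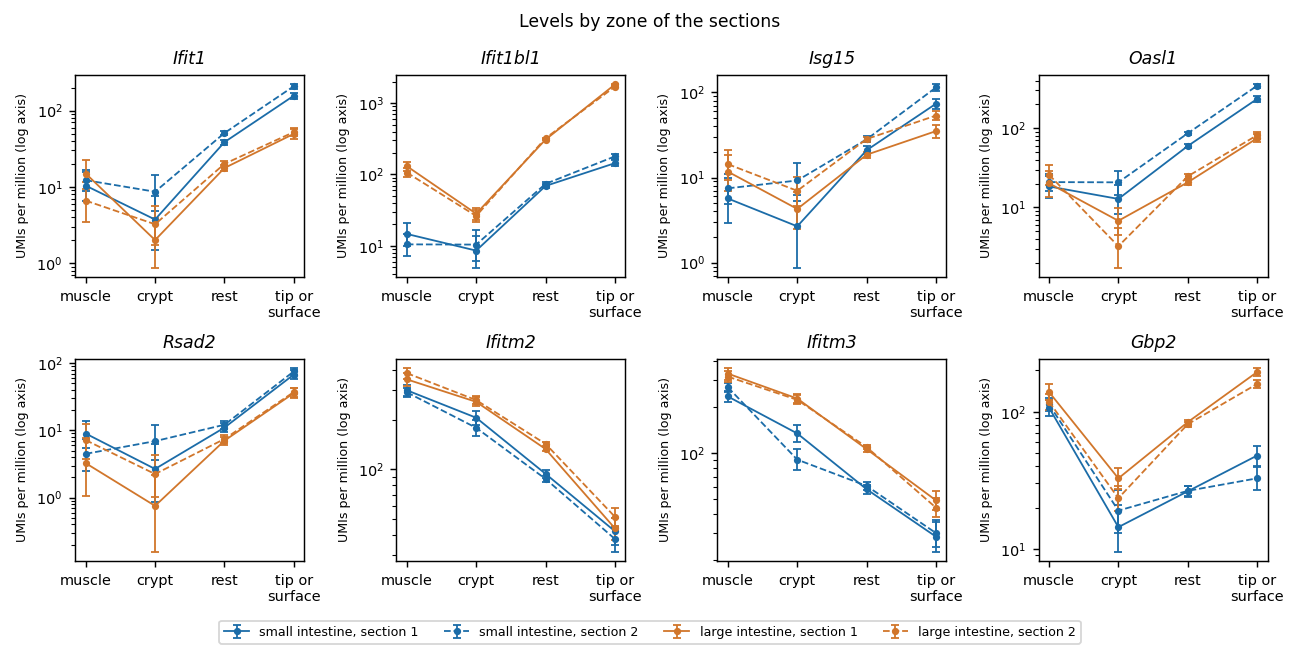
CPM with exact Poisson intervals (log axes) of 8 genes in 4 zones of each section, where rest stands for spots in none of the marker zones. Ifit1, Ifit1bl1, Isg15, Oasl1 and Rsad2 are lowest in the muscle or crypt zones and highest at the tip or surface, and Ifitm2 and Ifitm3 fall from muscle to the top.

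The cell makeup of the zones moved with these levels. The 6 epithelial markers summed to 12550 and 12603 CPM in tip spots and to 5993 and 5777 in crypt spots of the small intestine, and the 4 stromal markers to 320 and 295 against 1012 and 1098. The 35 members summed to 2742 and 3514 CPM at the tip and 1042 and 1192 in crypts. In the large intestine the epithelial markers summed to 14473 and 14987 CPM at the surface and 6495 and 6345 in crypts, and the members to 4078 and 3906 against 1259 and 1244. The part of these shifts in the results was not tested. In spots, fewer cells of a type and less RNA per cell cannot be told apart. Within 10% of the gate's lower bound lay 59 of 209 and 71 of 257 tip spots, and 129 of 209 and 134 of 218 surface spots, so the surface is a range rather than a sharp zone.

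Between whole sections the share of members that differed between the 2 tissues was near that of all genes. A member was counted where the nearest sections of the tissues were at least 2-fold apart, and 4 of 35 were higher in the large and 4 in the small intestine, against 10.4% and 11% of 16170 genes. Ifit1bl1 was at 412 and 418 CPM in large and 68.5 and 73.4 in small intestinal sections, and Gbp2 at 97.3 and 88.6 against 37.4 and 38.8. Ifit3b and Ifitm1 were the other two that were higher in the large intestine. Higher in the small intestine were Ifit1, at 48.6 and 61.0 against 18.7 and 20.9 CPM, and Oasl1, at 74.4 and 103 against 24.1 and 28.4, together with Usp18 and Cmpk2. Ifit1 and its close relative Ifit1bl1 thus differed in opposite directions. The 2 sections of a tissue are technical duplicates, so the tissue and the sample it came from cannot be told apart.

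The RNA of some members was gathered in few spots. After each spot was thinned at random to 2000 UMIs, Rsad2 had a variance over mean of 3.53 and 1.90 in the small intestinal sections, and Ifit1 of 2.41 and 1.84, where even scatter gives a value near 1 and the median of all genes was 1.03 and 1.04. Irf1, which is more abundant, was near even, at 1.19 and 1.13. Ifit1bl1 stood at 3.72 and 3.26 in the large intestinal sections.

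Spots with at least 3 thinned IFIT UMIs numbered 23 of 2063 and 35 of 2424 in the small intestine (1.11% and 1.44%), of which 11 and 19 were tip spots. In these spots, tip or not, Rsad2 had 143 and 80.0 UMIs per 100 spots, against 4.04 and 5.24 in the other tip spots. Cmpk2 had 60.9 and 51.4 against 7.58 and 5.24, and Isg15 69.6 and 97.1 against 13.1 and 13.5. Irf7 differed little between these spots and the other tip spots, at 39.1 and 62.9 against 44.9 and 48.0. In all other spots, tip or not, Irf7 had 14.7 and 17.9, Rsad2 2.01 and 2.22, Cmpk2 4.51 and 4.35, and Isg15 3.68 and 3.98. Ifitm2 and Ifitm3 had 1 and 1 thinned UMIs in the spots of section 1, and 0 and 1 in section 2, too few to set apart from the other tip spots, which held 10.1 and 6.57 per 100 spots in section 1 and 8.30 and 5.68 in section 2. Large intestinal spots with as many numbered 269 of 2084 and 259 of 2166, or 12.9% and 11.96%, and 94.4% and 92.1% of their IFIT UMIs came from Ifit1bl1, against 38.1% and 40.3% in the small intestine, where Ifit1 gave 49.2% and 51.6%. Rsad2 had 8.55 and 6.56 UMIs per 100 of these large intestinal spots against 1.35 and 3.16 in the other surface spots, where it had only 1 and 3 UMIs, and 1.32 and 1.52 in all other spots. Cmpk2 had 3.35 and 2.70, against 0 UMIs in the other surface spots of either section and 1.60 and 1.57 per 100 in all other spots. Isg15 had 9.29 and 15.8 UMIs per 100 of these large intestinal spots against 8.11 and 10.5 in the other surface spots and 2.92 and 4.25 in all other spots. Its counts in the other surface spots were only 6 and 10 UMIs, and whether the tissues differ in this was not tested. These spots were chosen by the IFIT counts themselves, so the values are a description.

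The 10 genes outside the list whose counts followed the summed members most closely over the 2063 and 2424 thinned small intestinal spots were Apoa1, Fabp2, Saa1, Ly6m, Crip1, Tmigd1, Muc3, Anpep, Selenop and Krt20, by the lower Spearman correlation of the 2 sections among 4955 genes. The correlations were weak, from 0.33 for Apoa1 to 0.26 for Krt20, and all points of a section share a library. Apoa1, Fabp2 and Anpep are enterocyte genes, and none of the 10 was on the list of interferon pathway genes.

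In dissociated tissue the highest level of most members was in endothelial cells, among classes of at least 20 cells. Cells were clustered without the interferon genes and clusters were named by marker genes, with the ending -like. The 4 endothelial markers (Pecam1, Cdh5, Egfl7, Tie1) summed to 2072 and 1851 CPM in the lymphatic endothelial-like cells of the small and large intestine, and to 4.19 and 3.14 in the epithelial cells. In the small intestine 25 of 35 members were highest in an endothelial class, 19 in lymphatic and 6 in blood endothelial-like cells, against 23% of 14239 genes (10.2% in lymphatic and 12.8% in blood). The large intestine had 24 of 35, 6 and 18, against 19.5% of 15656 genes (9.77% and 9.77%). The highest class lay above the next class with an interval off 0 for 11 and 8 of these. That next class was often the other endothelial class, as for Ifit1 and Rsad2, so these counts do not measure endothelium against other cells. Blood endothelial-like cells numbered only 39 and 87, and neighbours in the order often did not differ beyond counting error. Among the classes left out, the 13 glia or neuron-like cells of the small intestine held 6467 CPM of the members in all. Blood and lymphatic endothelial-like cells of that tissue held 6373 and 7664.

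In the small intestine Ifitm3 was at 2911 CPM in lymphatic and 2333 in blood endothelial-like cells, then 1656 in fibroblast-like and 1403 in macrophage or monocyte-like cells. Isg15 was at 367 CPM in lymphatic endothelial-like cells, and the next class, an unnamed epithelial cluster led by Clca4a, Fabp6 and Tmigd1, was at 129.8. Bst2 was highest in lymphatic endothelial-like cells (745 CPM) and then in plasma cell-like cells (480.6), where 466.5 CPM was also found in the large intestine. Ifitm1 was the exception among the membrane proteins, with 421 CPM in fibroblast-like cells of the small intestine. It was at 1041 CPM in an unnamed large intestinal stromal cluster led by Cxcl14, Nrg1 and Bmp5. In the small intestine its next class was blood endothelial-like cells, at 55.1 CPM, and the lymphatic class was at 0.81 (1 UMI).

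Tuft-like cells, the chemosensory cells of the epithelium, were highest for 6 of 35 members in the small intestine, against 9.29% of all genes. In these 99 cells Irf7 was at 159.9 CPM, against 82.4 in the next class, Oas1a at 52.0 against 21.7, and Oasl2 at 94.6 against 68.0 in lymphatic endothelial-like cells, and these 3 had intervals off 0. Oas2, Oas3 and Ifi27 also had their highest value there, at 40.0, 15.9 and 240.5 CPM, without such a gap. Large intestinal tuft-like cells were highest for 3 of 35 members, a share near the 6.18% of all genes. These were Oas2, Oasl1 and Irf7, at 9.76, 25.2 and 85.4 CPM, and none was set apart from the next class. Usp18 was highest in enteroendocrine-like cells of either tissue, at 54.6 and 27.2 CPM (24 and 14 UMIs). In neither tissue was it set apart from the next class. It stood at 62.6 CPM in the enteroendocrine-like cells of the cocultured organoids.

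Within the epithelium Ifitm2 and Ifitm3 were high in other cells than Isg15, Ifit1 and Oasl1. In small intestinal stem-like cells Ifitm2 was at 601 and Ifitm3 at 580 CPM, while Isg15 was at 3.08, Oasl1 at 1.03 and Ifit1 at 0 (0 UMIs). In the cluster led by Clca4a, Fabp6 and Tmigd1 (144 cells) Ifitm2 was at 53.8 and Ifitm3 at 7.94 CPM, with Isg15 at 129.8, Ifit1 at 42.5 and Oasl1 at 41.1. The cluster higher in Ifit1 was thus lower in Ifitm2 and Ifitm3 than the stem-like cells. In the large intestine Ifitm3 was at 1634 CPM in cycling-like and 52.5 in colonocyte-like cells, and Ifit1bl1 at 1.06 in cycling-like, 40.4 in colonocyte-like cells and 169 CPM in an unnamed cluster led by Ly6g, Tgm3 and Clca4b. Paneth-like cells had the lowest sum of the members among the small intestinal classes, 213 CPM.

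**Figure D3:**
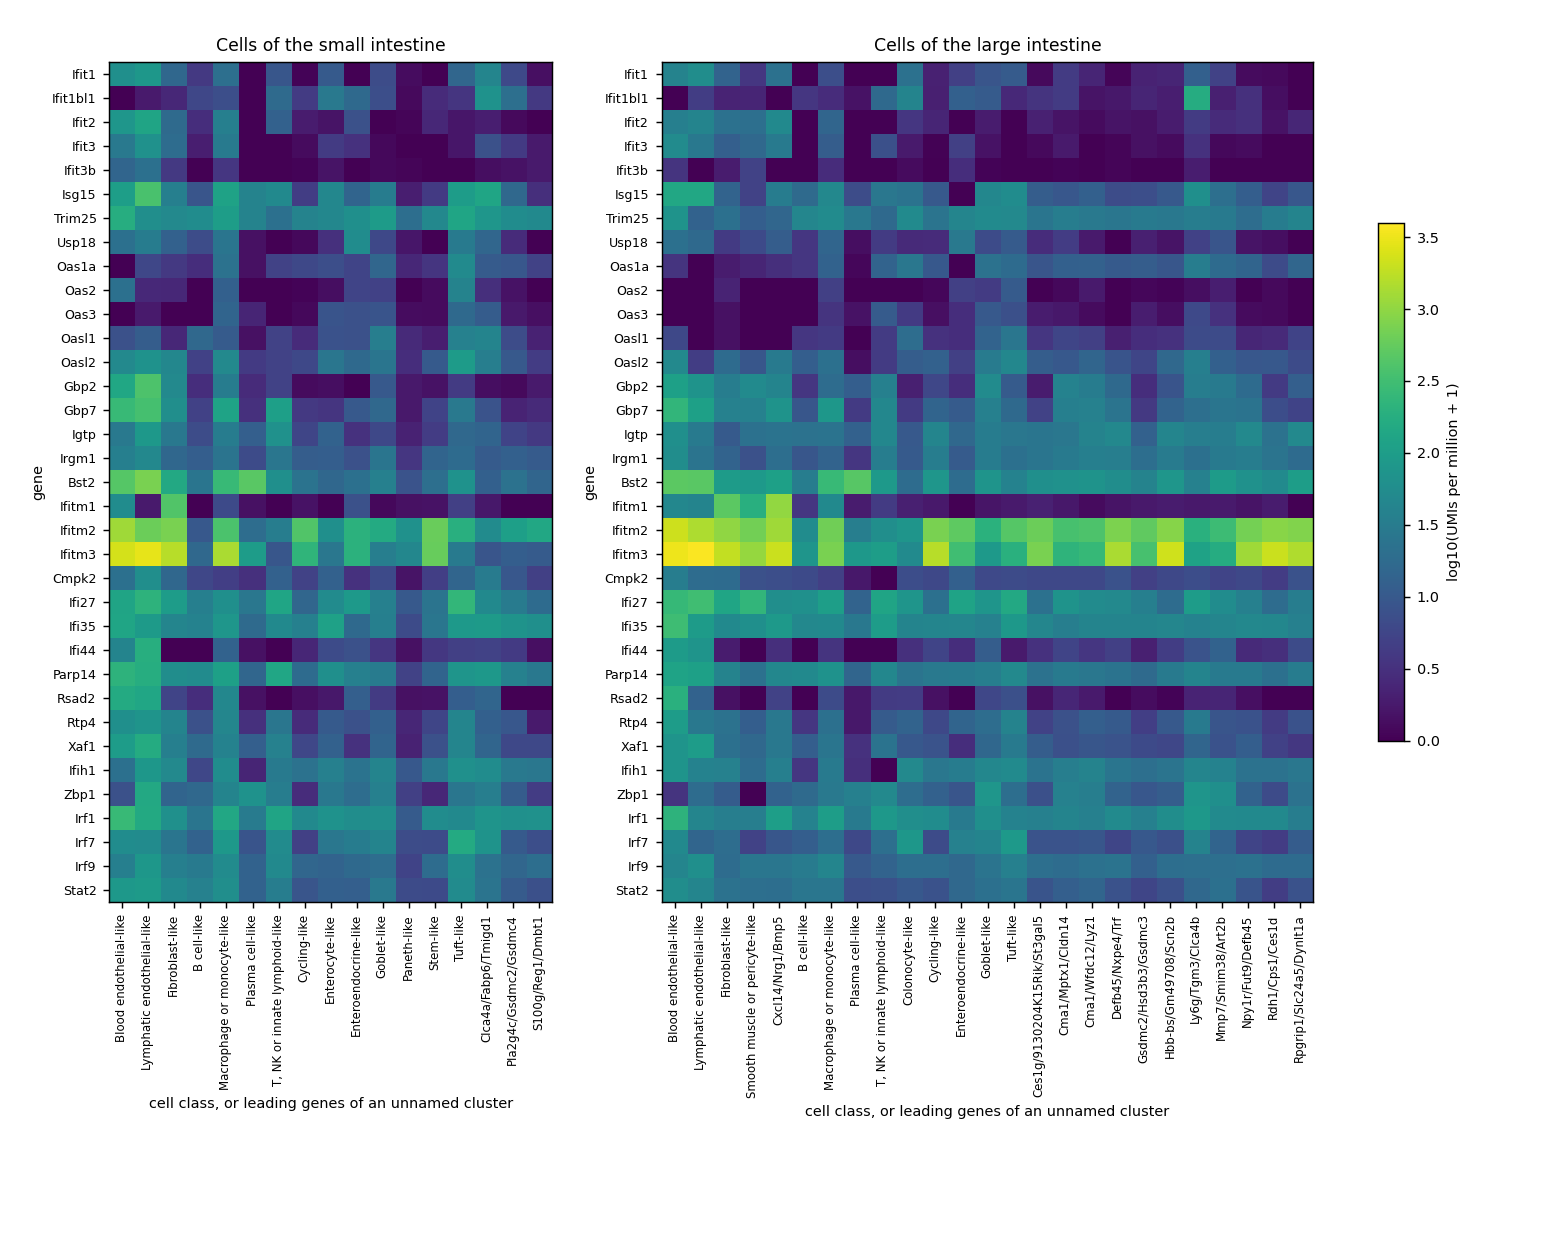
Colour gives log10 of CPM + 1 for the 35 genes (rows) in the cell classes and unnamed clusters with at least 20 cells (columns) of each tissue library. Ifitm2 and Ifitm3 are the brightest rows, the endothelial columns at the left are bright for most genes, and Ifit1bl1 is bright in the cluster led by Ly6g, Tgm3 and Clca4b.

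Lymphatic endothelial cells were compared with epithelial cells of the same library to see how far apart these neighbours in the tissue lie. The tissue libraries mixed live, LGR5+ and lymphatic sorts from both mouse lines, so cell type, sort and mouse line cannot be told apart. A gene was counted at a 2-fold difference of CPM, with a count under 3 set to 3. In the small intestine (347 against 1562 cells) 27 of 33 members compared were higher in the lymphatic endothelial-like cells and 1 was lower, against 35.8% and 19.3% of 12076 genes. The median log2 ratio was 3.09 for the members and 0.48 for all genes. Median depth was 3509 UMIs per lymphatic and 26381 per epithelial cell.

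Gbp2, a GTPase that coats pathogen vacuoles, was at 386 CPM in lymphatic endothelial-like and 1.57 in epithelial cells (log2 7.95, interval 7.58 to 8.33). Ifit2 was at 125 against 0.60 (7.71), Ifi44 at 177 against 2.40 (6.20), Rsad2 at 132 against 2.05 (6.01) and Bst2 at 745 against 20.1 (5.21). These 5 ratios were the largest beside those of Ifit3b, Gbp7 and Ifit3. Ifitm2, already abundant in the epithelium, differed less, with 625 against 213 CPM (1.55). The transcription factors were all higher, from 1.30 for Irf7 to 2.84 for Stat2. The member that was lower was Ifit1bl1, with 1 UMI in lymphatic endothelial-like cells and 520 (11.5 CPM) in epithelial cells. Of the OAS family only Oasl2 was counted as higher, at 68.0 against 14.7 CPM.

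In the large intestine (205 against 4395 cells, median 2292 UMIs in the lymphatic ones) 21 of 31 members were higher and 4 lower, against 31% and 18.3% of 11249 genes, with a median of 1.89 for the members and 0.25 for all genes. Ifit3 was at 26.5 against 0.41 CPM (log2 6.04), Ifitm1 at 40.7 against 0.75 (5.77) and Ifit2 at 40.7 against 1.17 (5.12). All 4 membrane proteins were higher, with Ifitm3 at 3832 against 923 CPM (2.05). Lower were Ifit1bl1 and Oasl2 with 2 UMIs each, Oas1a with 0 and Trim25 with 7. The interval of Ifit1bl1 reached above 0. These counts are small, and the number lower was 2 when lymphatic clusters with a median under 2000 UMIs were left out.

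Markers of other cells were present beside these results. The 6 epithelial markers, all of them detected, summed to 386 CPM in the lymphatic endothelial-like cells of the small and 646 in those of the large intestine, against 8233 and 8073 in epithelial cells. The 4 immune markers summed to 20.2 and 31.9 CPM there, with 3 of 4 detected in the large intestine, against 18.6 and 8.24 in epithelial cells. Stromal markers summed to 21.9 and 108 against 4.15 and 10.7 CPM. Their part in the ratios was not tested.

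**Figure D4:**
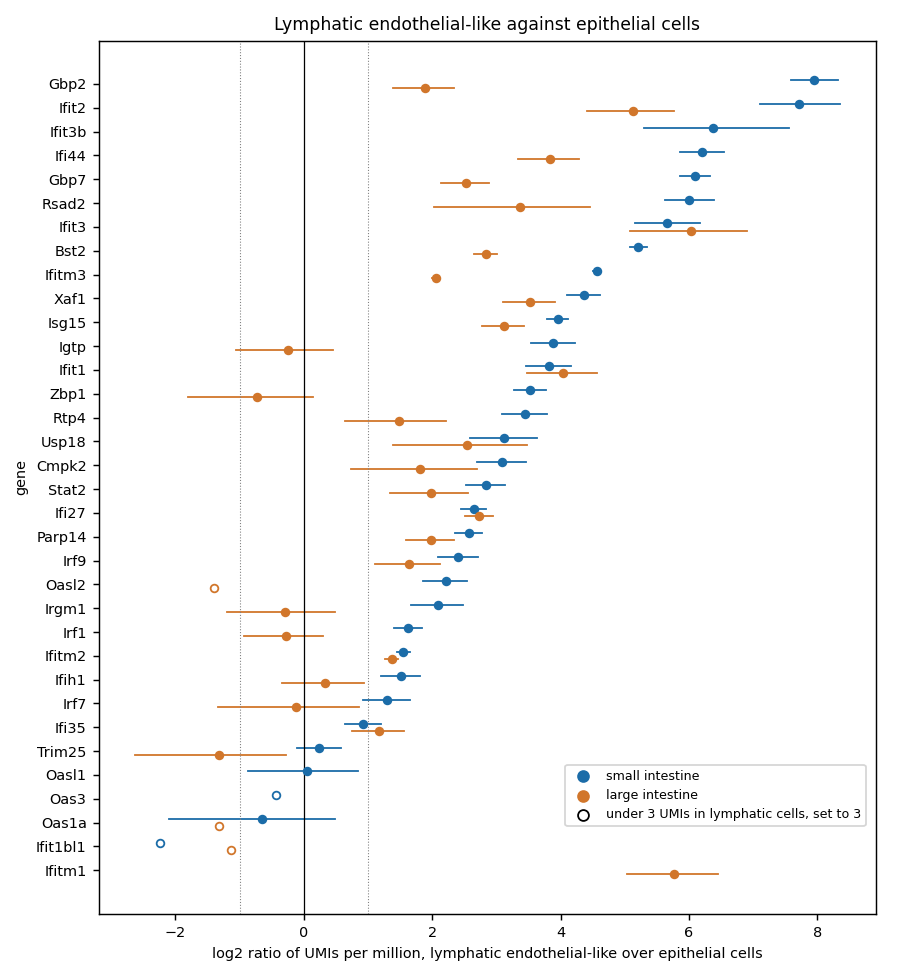
Log2 ratio of CPM in lymphatic endothelial-like over epithelial cells for each gene compared, in the small (blue) and large (orange) intestine, with exact intervals for counting error and dotted lines at 2-fold. Most points lie right of the lines, Gbp2 and Ifit2 of the small intestine are farthest right, and open circles (under 3 UMIs in lymphatic cells, set to 3, drawn without an interval) lie left of 0.

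The lymphatic endothelial-like cells of the 2 tissues differed from each other in most members. In the small intestine 18 of 28 members were higher than in the large and 1 was lower, against 7.01% and 3.87% of 7314 genes, with medians of 1.29 and 0.01. Rsad2 was at 132 against 12.4 CPM (log2 3.41, interval 2.34 to 4.75), Zbp1 at 149 against 17.7 (3.07), Gbp2 at 386 against 70.8 (2.45) and Isg15 at 367 against 145 (1.34). Oasl2 was at 68.0 against 3.54 CPM. All 4 GTPases were higher in the small intestine, and Ifitm2 was the one member counted as higher in the large, at 1416 against 625 CPM. The tissue, the sort and the library cannot be told apart.

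In the epithelium of the 2 tissues the difference ran the other way for the GTPases. Of 34 members 9 were at least 2-fold higher in the large intestinal epithelium and 3 lower, against 15.6% and 9.47% of 14946 genes. The median was 0.06 for the members and 0.28 for all genes. All 4 GTPases were higher in the large intestine. Gbp2 was at 19.1 against 1.57 CPM (log2 3.61, interval 3.27 to 3.97), Igtp at 33.5 against 5.63 (2.57), Gbp7 at 19.3 against 5.05 (1.94) and Irgm1 at 28.1 against 11.1 (1.35). Ifitm3 was at 923 against 123 CPM (2.91), Ifitm2 at 548 against 213 (1.36) and Bst2 at 65.8 against 20.1 (1.71). The other two of the 9 were Zbp1 and Ifi44. Lower in the large intestine were Ifit3, Oas2 and Oasl1, the last at 4.77 against 10.1 CPM. Ifit1bl1 was level over all epithelial cells, at 11.7 and 11.5 CPM, although whole sections differed, and the cells came from a sort that enriched stem cells.

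Other genes of the pathway gave a frame for these values. Of 10 interferon genes listed, none reached 30 UMIs in a comparison of cells. Ifng, for interferon-gamma, had 6 UMIs in the small intestinal cells, 5 of them in T, NK or innate lymphoid-like cells, and 12 in the large, 10 of them there. Ifnb1 had 0 UMIs and 1 UMI. Of the receptors, Ifnlr1, for the type III interferon receptor, was scarce, at 2.29 CPM in small and 1.21 in large intestinal epithelium, with its highest value in the small intestine, 5.87 CPM, in the cluster led by Clca4a, Fabp6 and Tmigd1. Ifnar2, for a chain of the type I receptor, was at 219 CPM in the lymphatic class of the small intestine and 10.3 in its epithelium.

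A list of 23 genes typical of the interferon-gamma response, which includes other GTPases and antigen presentation genes, was compared in the same way. In large against small intestinal epithelium 18 of 23 were higher and 0 lower, with a median log2 ratio of 1.93, where 15.6% of all genes were higher. Between whole sections of the same tissues 4 of 23 were higher in the large intestine and 1 lower (median 0.27), against 10.4% and 11% of all genes. Between lymphatic endothelial-like cells 17 of 18 were higher in the small intestine (median 1.55), against 7.01% of all genes. Against the epithelium of their own tissue 18 of 19 were higher in the small intestinal lymphatic cells, against 35.8% of all genes, and 9 of 21 were higher and 5 lower in the large intestinal ones, against 31% and 18.3%. At the villus tip 7 of 21 were higher and 0 lower, and at the colon surface 6 of 23 were higher and 2 lower, where 7.44% and 8.58% of all genes were higher and 43.1% and 43.6% lower. The list of 23 other type I or type III response genes had 11 of 22 higher and 2 lower (Ifi27l2a and Isg20) at the tip, and 12 of 23 higher and 4 lower (Ifi27l2a, Ifi203, Ifi204 and Isg20) at the surface. In large against small intestinal epithelium 2 of its 22 genes compared were higher and 5 lower, against 15.6% and 9.47% of all genes.

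Organoids had less of several members than the tissue epithelium. In control organoids 12 of 34 members were at least 2-fold lower and 3 higher than in small intestinal tissue epithelium, against 16.5% and 12.1% of 13536 genes. The median was -0.43 for the members and 0.08 for all genes. In cocultured organoids 16 of 34 were lower and 2 higher, against 19.3% and 10.7% of 13936 genes, with medians of -0.82 and -0.05. The 2 comparisons share the tissue cells.

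Oas2 was at 0.07 CPM (3 UMIs) in control and 0.06 (6 UMIs) in cocultured organoids, against 2.16 in tissue. Gbp7 was at 0.21 and 0.20 against 5.05 CPM, Zbp1 at 0.86 and 0.64 against 13.0, and Igtp at 1.02 and 1.45 against 5.63. These 4 were lower in both cultures. Cmpk2 was at 1.201 and 1.10 against 6.84 CPM and Ifit1bl1 at 3.004 and 2.29 against 11.5. Ifitm2, the most abundant member of the epithelium, was nearly level, at 200 and 195 against 213 CPM. Higher in both cultures were Oasl1, at 72.9 and 44.2 against 10.1 CPM, and Bst2, at 41.8 and 52.4 against 20.1. The number higher in control organoids was 1, not 3, when cells were taken by a per-cell marker gate. It was also 1 when tissue cells with a UMI of an immune, endothelial or stromal marker were left out. The number lower was 18 by that gate and 13 without those tissue cells, against 12 in the main setting.

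The interferon-gamma list was lower in 13 of 18 genes in control and 13 of 17 in cocultured organoids, and higher in 1, Cxcl10, in each, where 16.5% and 19.3% of all genes were lower and 12.1% and 10.7% higher. The 4 immune markers summed to 0.21 and 0.10 CPM in control and cocultured organoids and to 18.6 CPM in the tissue epithelium, and their part in the result was not tested. Culture, sort, depth and library differ together here and cannot be told apart.

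Between the organoid cultures the share of members that differed 2-fold was near that of all genes. Which members did so depended on the cells and the scale used. Of 31 members 1 was higher and 1 lower in coculture, against 2.32% and 4.29% of 13347 genes, and the medians were -0.13 and -0.10. The lower one, Gbp2, had 40 UMIs in the control library, all in 1 cell, and 1 UMI in the cocultured one. The higher one, Ifi44, had 14 UMIs in control and 82 in coculture, 49 of them in 1 cell. Without the cell richest in the gene in each library 0 members were higher and 0 lower. The number lower was 3 with the strict cell filter and 6 by the mean of each cell's CPM. Past 1.5-fold, Trim25 was at 56.1 CPM in control and 30.4 in coculture (log2 -0.89, interval -0.96 to -0.81), Oasl1 at 72.9 and 44.2 (-0.72) and Ifitm3 at 92.7 and 60.5 (-0.62).

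A cluster led by Sprr1a, Sprr2f and Ly6d moved with the level of Oasl1. It held 80 of 538 control cells (14.9%) and 40 of 1028 cocultured cells (3.89%). In it Oasl1 was at 338 CPM in control and 472 in coculture, and Isg15 at 86.5 and 277. The cluster held 65.0% of the control library's Oasl1 UMIs and 35.1% of the cocultured one's, and outside it Oasl1 was at 29.6 CPM in both. Trim25 was at 32.6 and 26.2 CPM outside the cluster. Over the cells outside it 3 members were higher in coculture (Ifi27, Oas3 and Usp18) and 2 lower (Ifit3 and Rsad2), against 2.22% and 2.25% of 13172 genes. Some of these rest on few UMIs: Oas3 had 7 in control and 37 in coculture, Usp18 16 and 88, and Rsad2 44 and 36. Ifit3 had 27 and 34, of which 1 control cell held 16. In coculture 46 of the Usp18 UMIs lay in enteroendocrine-like cells, which numbered 5 in control and 22 in coculture. Outside the cluster Ifi27 was at 7.82 CPM in control and 18.5 in coculture (291 and 1738 UMIs). Isg15 was at 8.01 CPM in control and 15.6 in coculture outside it, and at 19.0 and 24.2 over all cells. By class, in organoid stem-like cells Ifitm3 was at 219 and 199 CPM and Isg15 at 4.10 and 2.19, and in enterocyte-like cells Ifitm3 was at 1.59 and 1.83 and Isg15 at 34.4 and 49.9.

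**Figure D5:**
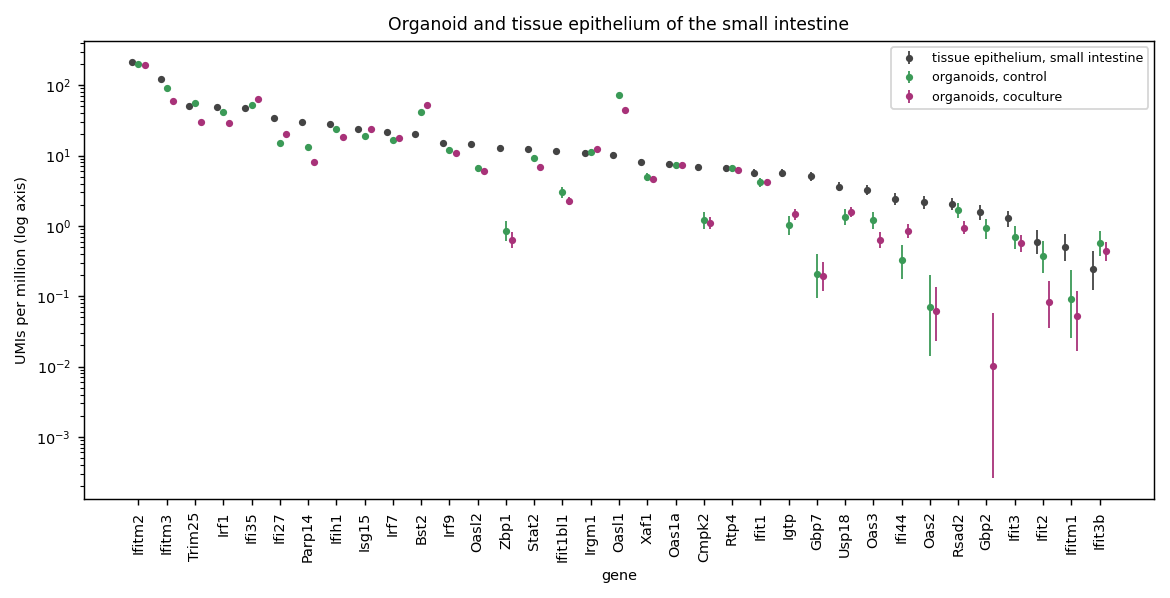
CPM (log axis) of the 35 genes in small intestinal tissue epithelium (grey), control organoids (green) and cocultured organoids (purple), with exact Poisson intervals, ordered by the level in tissue. Oasl1 lies above the tissue in both cultures, Zbp1, Gbp7 and Oas2 lie below it, and the control value of Gbp2 comes from 1 cell.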

How the data were processed

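Gene-by-barcode matrices of UMI counts were used as deposited, without normalization, from 4 single-cell and 4 Visium libraries. Counts came from Cell Ranger 6.0.1 (cells) and Space Ranger 1.2.1 (spots) per the file headers, with build mm10 per the submitters' processing notes. The members and gene lists were chosen with earlier results of these data known. Members are described where they have at least 30 UMIs in a comparison, and genes outside the list by the 10 highest correlations or as pathway genes.

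The cell filter asked for 500 genes or more and 20% mitochondrial UMIs or less, the highest Scrublet scores were removed at 0.8% per 1000 cells, and spots with at least 500 UMIs were kept (scanpy 1.11.5, numpy 2.4.6, scipy 1.17.1). Cells were clustered without members and pathway genes (2000 variable genes, 30 components, 15 neighbours, Leiden resolution 1, seed 0). A cluster took a class from at least 3 markers detected in 10% of its cells and 1 log2 unit above the other cells. Part of this naming rule was set after the clusters were seen, and clusters it left out carry their leading genes. Classes under 20 cells (dendritic-like, glia or neuron-like) were not compared.

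Log2 ratios of CPM used genes with at least 30 UMIs in both groups together, with a count under 3 set to 3. A gene left out of a comparison had fewer UMIs, or its group with under 3 UMIs would have been the higher one at 3. Intervals are exact 95% Poisson intervals and cover counting error only. Calls rest on size, 2-fold for cells and 1.5-fold for spots. The comparison was tested on simulated data. One gene's results are not reported here. Alternatives were other filters, scalings, resolutions, gates and thresholds.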

Additional observations from a re-analysis of the deposited data

Results flagged for a closer look

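Oasl2 differed in direction between the tissues. Its log2 ratio of lymphatic endothelial-like over epithelial cells was 2.21 in the small intestine (84 UMIs in the lymphatic cells) and -1.41 in the large (2 UMIs, set to 3), so the small minus the large intestinal value was 3.61. The interval of the large intestinal ratio ran from -5.04 to -0.14. With 1 library per tissue the difference was not tested.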

How the results depend on the processing

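Of 176 recomputed counts and values, 153 stayed within 1.5 times the reported one and 23 did not. Members lower in coculture than in control organoids (1) became 3 with the strict cell filter, 6 by the mean of each cell's CPM, 7 at 1.5-fold and 0 at 100 UMIs, where those higher (1) were also 0. After the data were seen, leaving out each gene's richest cell gave 0 and 0. Leaving out the cluster led by Sprr1a, Sprr2f and Ly6d, also after the data were seen, gave 3 higher and 2 lower. These stand against 2.22% and 2.25% of all genes. Oas3 rested there on 7 control UMIs, Usp18 on 16 and Ifit3 on 27, of which 1 cell held 16. Members higher in control organoids than in tissue (3) became 1 by the per-cell marker gate and 1 without tissue cells that held an immune, endothelial or stromal marker UMI. Members lower in large than in small intestinal epithelium (3) became 5 with the strict filter, 5 by the mean of each cell's CPM, 5 by median-of-ratios scaling and 7 at 1.5-fold. Members lower in lymphatic than in epithelial cells became 2, 3 and 2 in the small intestine (1) by mean CPM, median-of-ratios scaling and 1.5-fold, and 2 and 2 in the large (4) with the strict filter and without lymphatic clusters under 2000 UMIs. The variance over mean of Ifit1 (mean of the sections 2.12) was 1.53 after thinning to 1000 UMIs and 20.2 without thinning, and that of Rsad2 (2.72) was 19.5 without thinning. Where no change of genes, cells or thinning is named as the alternative itself, the cause was not tested. With 1 section of each tissue left out in turn, 25 to 26 members were higher and 3 to 4 lower at the tip, 18 to 19 and 4 to 5 at the surface, and 4 to 5 and 4 to 5 in large against small intestinal sections. No paired analysis was possible because no test was made and the sections are technical duplicates. Depth limits the scarce classes, with 145307 and 397775 UMIs in the blood endothelial-like and 564986 in the large intestinal lymphatic endothelial-like cells.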
